A study of Homo sapiens with 54 samples.

Results

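The metallothionein genes MT2A, MT1E, MT1F, MT1G, MT1M and MT1X were followed across SUM1315 and MDA-MB-468 triple negative breast cancer cells given olaparib, cisplatin (CDDP) or both. They were chosen by gene symbol as metal-binding proteins that can sequester platinum, and are 6 of the 27470 genes in the deposited table. RNA was sequenced from transcript 3′ ends in 54 libraries, with 9 conditions per line and 3 libraries per condition. SUM1315 is a BRCA1 mutant line and MDA-MB-468 is BRCA1 wild type. The question of the study was how acquired olaparib resistance bears on CDDP responses.

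Parental SUM1315 cells were untreated, or treated overnight with 8 µM olaparib, with CDDP at 2 or 4 µM, or with olaparib and either CDDP dose. Parental MDA-MB-468 cells had the same conditions at 3 µM olaparib and 1 or 2.5 µM CDDP (the text of the series gives 2 µM for the higher dose). Olaparib resistant (OlaR) cells were kept in olaparib, at 25 µM for SUM1315 and 15 µM for MDA-MB-468, and were either left so or given CDDP at the same low or high dose as their parental line. Each OlaR line is a population selected by stepwise olaparib exposure, so it stands for a single selection, and no OlaR library without olaparib was part of the design. Doses differ between the lines, and "low" and "high" refer to each line's own doses. Neither the labels nor the methods name a vehicle for the untreated cells or say whether the 3 libraries of a condition came from separate cultures, so p-values measure only the spread between these libraries.

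Metallothioneins are small cysteine-rich proteins that hold zinc and copper and buffer the free zinc of the cell. They also bind cadmium and platinum, and are known from other work as proteins that can trap cisplatin. Their genes are switched on by metal-responsive transcription factor 1 (MTF1), which senses zinc and binds metal response elements in their promoters, and by glucocorticoids and oxidative stress. MT2A is the main isoform in many human epithelial cells, while the MT1 isoforms vary between cell types.

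All 6 genes lie in a cluster on chromosome 16 (hg38, GENCODE annotation). From low to high coordinates, MT2A spans 56608584-56609497, MT1E spans 56625475-56627112 and MT1M spans 56632659-56633981. They are followed by MT1F at 56657731-56660698, MT1G at 56666730-56668065 and MT1X at 56682470-56684196. MT1G is on the minus strand and the other 5 are on the plus strand. Because the copies are alike, every stretch of 50 bases, the read length, within an exon of the reference transcripts was looked up in hg38. In the last exon, where 3′ reads fall, 80.1% of the stretches of MT2A, 77.6% of MT1E, 86.3% of MT1X, 83.3% of MT1G and 84.1% of MT1M were found once in the genome, and 100% of those of MT1F. Reads from the remaining stretches cannot be told from those of related copies, so the values of MT2A, MT1E, MT1G, MT1M and MT1X are uncertain to that extent.

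Promoter sequences, from 250 bases before to 50 bases after the start of transcription, came from a RefSeq promoter set (GRCh38.p14). It held 2 of the 6 genes, MT2A (chr16:56608334-56608633, plus strand) and MT1X (chr16:56682220-56682519, plus strand), and had no entry for MT1E, MT1F, MT1G and MT1M. MT2A and MT1X were also the members tested in both lines. Over the 9 condition means their log2 levels had a Pearson correlation of 0.828 in SUM1315 and 0.047 in MDA-MB-468. Whether the promoters bear on these patterns was not tested. Capitals mark each match, on either strand, to the metal response element core TGCACNC or TGCGCNC, with N for any base.
MT2A: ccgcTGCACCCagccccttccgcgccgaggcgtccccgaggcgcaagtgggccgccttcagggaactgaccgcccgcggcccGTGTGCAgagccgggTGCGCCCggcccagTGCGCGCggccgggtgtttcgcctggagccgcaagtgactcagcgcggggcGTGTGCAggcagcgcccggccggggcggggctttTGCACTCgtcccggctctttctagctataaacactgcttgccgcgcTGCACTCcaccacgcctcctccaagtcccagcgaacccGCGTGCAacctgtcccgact
MT1X: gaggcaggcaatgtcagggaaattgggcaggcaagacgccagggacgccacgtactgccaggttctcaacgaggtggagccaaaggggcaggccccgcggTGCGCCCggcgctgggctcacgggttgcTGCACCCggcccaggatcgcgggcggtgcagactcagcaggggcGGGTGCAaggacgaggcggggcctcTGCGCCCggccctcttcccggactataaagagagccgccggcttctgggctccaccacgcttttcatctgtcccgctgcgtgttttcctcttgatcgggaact

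The MT2A promoter held 8 matches, 7 of them before the start site, and the MT1X promoter held 4, all before it. Of 35116 human promoters of the same length, 29.6% held at least 1 match, 0.601% at least 4 and 0.0199% at least 8. The AP-1 site TGACTCA, searched on both strands and not overlapping the capitals, was found in the MT2A promoter and not in that of MT1X, and in 4.95% of all promoters. These are matches of letters and no binding was measured.

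The values are adjusted read counts, which are reads per gene scaled by edgeR to a library of 5585170 reads. The whole reads behind them were recovered, and gave 4977284 to 7540920 reads per parental SUM1315 library, 5574767 to 9268161 per parental MDA-MB-468 library, 3446613 to 4665505 per OlaR SUM1315 library and 2070301 to 4676284 per OlaR MDA-MB-468 library. OlaR libraries were thus shallower, and their part in the results was not tested. Of the fixed markers, the epithelial EPCAM, CDH1 and KRT19 had medians of 3030, 806 and 13500 adjusted read counts in MDA-MB-468, but each had a median of 0 and at most 5 reads in a SUM1315 library. SUM1315 expressed KRT17 and KRT18 (medians 1020 and 320) and the mesenchymal VIM (median 11500). RB1 was low in MDA-MB-468 (median 14.6) and not in SUM1315 (median 302). The leukocyte markers PTPRC and CD3E had a median of 0 in both lines, as did COL1A2. Of the other fixed markers of other cell types, PECAM1 and COL1A1 were expressed in SUM1315 (medians 156 and 479). Their medians in MDA-MB-468 were 8.15 and 47.9.

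Which metallothioneins were present depended on the line. MT2A and MT1X had reads in all 27 libraries of both lines. MT1E was present in SUM1315, with 30915 reads in all and 89 to 1853 per library, while MDA-MB-468 had 1 read of MT1E in 27 libraries. MT1F was the reverse, with 1963 reads in MDA-MB-468 (23 to 139 per library) and 7 reads in 6 of the SUM1315 libraries. The lines thus shared MT2A and MT1X and differed in the additional MT1 isoform.

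MT1G and MT1M stayed near 0 everywhere. MT1G had 5 reads over SUM1315 and 4 over MDA-MB-468, with at most 2 in a library, and MT1M had 2 reads over SUM1315 and 0 over MDA-MB-468, a count that allows up to 3 reads for the line. No fold change is given for MT1G or MT1M, for MT1E in MDA-MB-468 or for MT1F in SUM1315, since these did not pass the limit of 10 in at least 3 libraries. The 3 members tested in each line had at least 23 reads in every library of that line. Of 11 other metallothionein genes and pseudogenes, 10 were in the table, with at most 4 reads in a library for MT1A and fewer for the rest, and 0 reads for the brain isoform MT3.

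MT2A supplied 91.5% of the reads of the 6 genes in SUM1315, with 4.45% from MT1E and 4% from MT1X. In MDA-MB-468 the shares were 87.7% for MT2A, 9.47% for MT1X and 2.8% for MT1F. These are shares of reads at transcript 3′ ends, where capture differs between genes, so they are not ranks of expression. The 6 genes together took 0.183% ± 0.0102 (SD, n = 3) of all reads in untreated SUM1315 cells, 0.628% ± 0.0181 with olaparib and 0.703% ± 0.00811 in OlaR cells. In MDA-MB-468 the means of the 9 conditions stayed between 0.0388% and 0.0445%. In RNA from whole cultures, more expressing cells and more RNA per cell cannot be told apart.

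Levels in untreated cells were higher in SUM1315 than in MDA-MB-468. MT2A was at 10500, 9986 and 9724 in the 3 untreated SUM1315 libraries and at 2045, 2050 and 1949 in those of MDA-MB-468, a ratio of means of 5. MT1X was at 772.7, 750.3 and 791.2 against 133.1, 163.6 and 166.5, again a ratio of 5. The lowest of the 27 SUM1315 libraries was 4.16 times the highest MDA-MB-468 library for MT2A and 2.5 times for MT1X, whatever the treatment. No test of the levels was planned between lines, which also differ in origin.

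**Figure D1:**
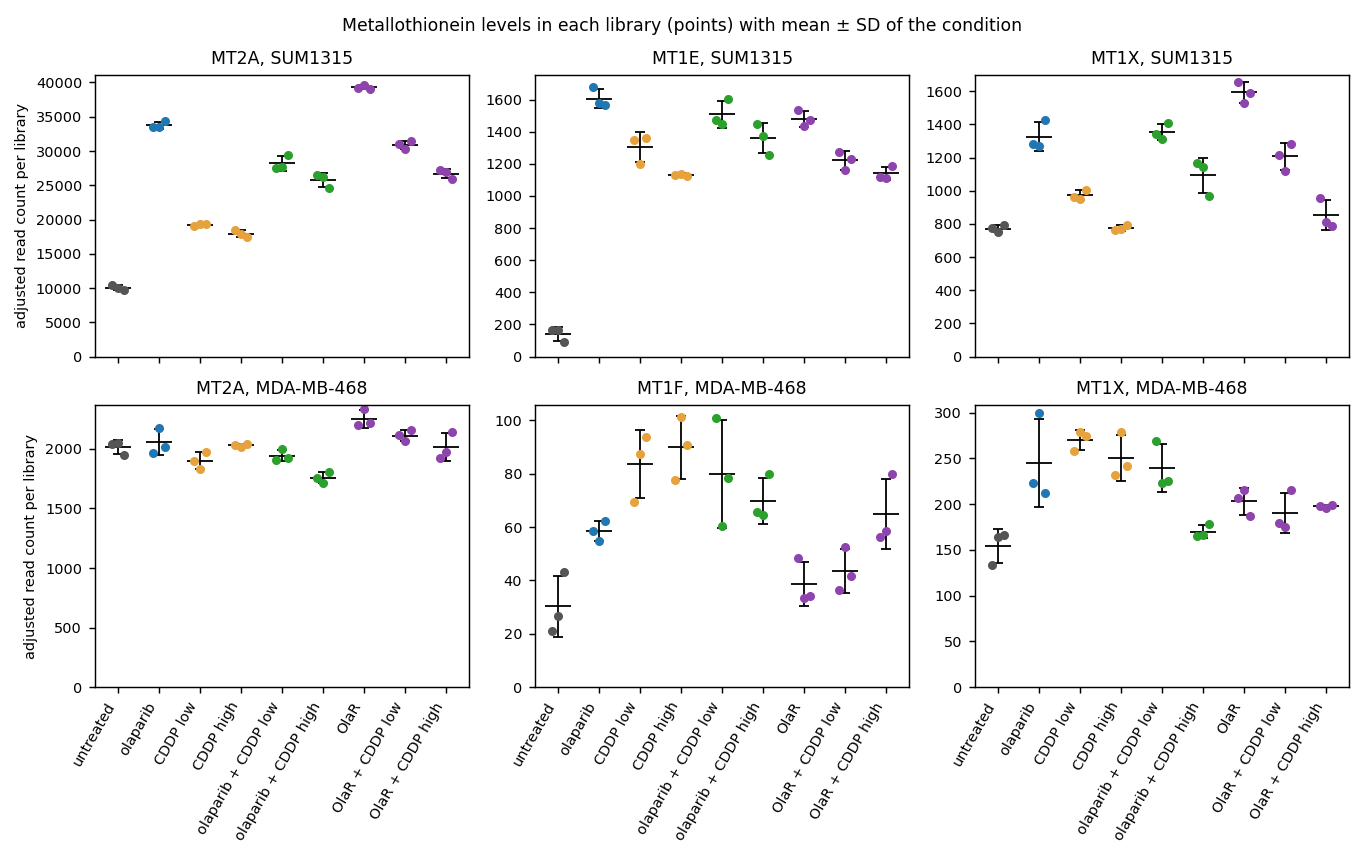
Adjusted read counts (vertical axes, linear from 0) of the 3 metallothioneins tested in SUM1315 (top) and in MDA-MB-468 (bottom) in each of 9 conditions. Points are libraries, drawn from replicate 1 to 3, and bars are the mean ± SD of 3 libraries. In SUM1315 the untreated libraries are the lowest for MT2A and MT1E, with MT1E at 141.9 ± 42.9 against at least 1112 in every other library, whereas MT2A in MDA-MB-468 stays between 1714 and 2336.

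In SUM1315 cells, olaparib alone raised all 3 tested members. MT2A went from a mean of 10070 ± 392 (SD, n = 3) to 33750 ± 499, at 33480, 33440 and 34330 in the olaparib libraries. Its log2 fold change was 1.75 (SE 0.08, adjusted p = 7.33e-18), or 3.35-fold. MT1E moved furthest, from 165.8, 167.5 and 92.38 to 1677, 1579 and 1564, a log2 fold change of 3.54 (SE 0.13, adjusted p = 1.61e-20), or 11.6-fold. MT1X rose less, from 771.4 ± 20.5 to 1327 ± 87.4, a log2 fold change of 0.78 (SE 0.09, adjusted p = 1.8e-08). The olaparib and untreated libraries did not overlap for any of the 3. The share of all genes without such overlap was not counted, here or in the comparisons below. Genes that changed at least 2-fold and had an adjusted p no higher than 0.05 were counted as differentially expressed (DEGs). MT2A and MT1E were DEGs, 2 of 3 members against 9.35% of all 13133 genes tested. All 3 were past the adjusted p alone, against 36% of all genes.

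CDDP alone also raised MT2A and MT1E in SUM1315. At the low dose MT2A was at 19060, 19290 and 19340, a log2 fold change of 0.93 (SE 0.08, adjusted p = 4.48e-11), and at the high dose at 18410, 17950 and 17520, a log2 fold change of 0.84 (adjusted p = 2.23e-10). Both sets lay between the untreated and the olaparib libraries. MT1E reached 1351, 1199 and 1364 at the low dose (log2 fold change 3.24, adjusted p = 2.63e-19) and 1130, 1140 and 1122 at the high dose (3.04, adjusted p = 5.65e-19). MT1X rose at the low dose to 962, 948.3 and 1006 (log2 fold change 0.33, adjusted p = 0.00372). At the high dose MT1X was at 763.4, 767 and 795, overlapping the untreated libraries, with a log2 difference of 0.01 (95% interval -0.17 to 0.19, adjusted p = 0.96). MT1E was the DEG at each dose, 1 of 3 members, against 8.79% of genes at the low and 15.4% at the high dose, and 3 and 2 members were past the adjusted p alone against 33.9% and 43.9%. The olaparib and CDDP comparisons share the same 3 untreated libraries.

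The largest separation of MT1E in SUM1315 was between untreated and drugged libraries. All 24 drugged libraries, OlaR cells included, lay between 1112 and 1677, and the untreated libraries between 92.38 and 167.5. Neighbouring conditions among the 8 drugged ones overlapped in their ranges at every place in the order, from CDDP high at the low end to olaparib at the high end. These 2 ends did not overlap, at 1122 to 1140 with CDDP high and 1564 to 1677 with olaparib. MT2A was more clearly graded. Its order from low to high was untreated, CDDP high, CDDP low, olaparib + CDDP high, OlaR + CDDP high, olaparib + CDDP low, OlaR + CDDP low, olaparib and OlaR, and among these only olaparib + CDDP high and OlaR + CDDP high overlapped. The highest condition mean was 3.9 times the lowest for MT2A, 11.3 times for MT1E and 2.07 times for MT1X.

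When CDDP was added to olaparib in SUM1315, no member was higher than with olaparib alone beyond the threshold. With the high dose MT2A was at 26480, 26250 and 24570, below all olaparib libraries, and fell by 0.39 on the log2 scale (SE 0.08, adjusted p = 0.00135). MT1E was at 1447, 1375 and 1258, a log2 difference of -0.24 (95% interval -0.5 to 0.02, adjusted p = 0.262). MT1X was at 1166, 1143 and 970.2 and had a log2 fold change of -0.28 (adjusted p = 0.0416). That call of MT1X was lost without olaparib replicate 1, 2 or 3 or combination replicate 2 or 3, with an adjusted p of 0.0619 to 0.249, and also with no filter (0.0563) and with only the compared libraries (0.0995). With the low dose, the log2 differences from olaparib were -0.26 for MT2A (adjusted p = 0.0565), -0.09 for MT1E (adjusted p = 0.767) and 0.03 for MT1X (adjusted p = 0.898). MT2A did pass at the low dose with edgeR (adjusted p = 0.0229) and DESeq2 (adjusted p = 0.000113) on whole reads. No member was a DEG, against 1.32% of genes at the high and 0.495% at the low dose, and 2 and 0 members were past the adjusted p alone, against 8.44% and 3.76%.

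Against CDDP alone at the high dose, adding olaparib raised MT2A by a log2 fold change of 0.52 (SE 0.08, adjusted p = 2.33e-05) and MT1X by 0.49 (SE 0.09, adjusted p = 0.000237). MT1E differed by 0.26 (95% interval 0 to 0.52, adjusted p = 0.186). The call of MT1E depended on the fit, with an adjusted p of 0.0219 in a fit of only the compared libraries and of 0.0336 with DESeq2. None of the 3 was a DEG, against 2.56% of genes, and 2 were past the adjusted p alone, against 12.8%.

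The combination was then set against the sum of the changes of the single drugs, on the log2 scale. In SUM1315 it fell short of that sum by 1.23 for MT2A (interaction -1.23, SE 0.11, adjusted p = 1.57e-09) and by 3.28 for MT1E (interaction -3.28, SE 0.18, adjusted p = 7.39e-15). For MT1X the interaction was -0.29 (95% interval -0.54 to -0.03, adjusted p = 0.0973). For MT1E the shortfall lay between the single-drug changes of 3.54 and 3.04, and for MT2A between those of 1.75 and 0.84. Of the 3 members 2 passed, against 21.5% of all genes.

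In OlaR SUM1315 cells, MT2A and MT1X were higher than in parental cells given olaparib overnight. OlaR cells had MT2A at 39210, 39660 and 39100, above every other library of the line, a log2 fold change of 0.22 over olaparib-treated parental cells (SE 0.08, adjusted p = 0.0211). MT1X was at 1656, 1532 and 1591 (log2 fold change 0.26, SE 0.09, adjusted p = 0.0142). MT1E was at 1536, 1434 and 1471, with a log2 difference of -0.12 (95% interval -0.38 to 0.14, adjusted p = 0.474). The call of MT2A was lost without olaparib replicate 1 or 2 or OlaR replicate 1 or 2 (adjusted p 0.0515 to 0.0599) or with no filter (0.0805), and that of MT1X without olaparib replicate 1 or 2 or OlaR replicate 1 (0.0538 to 0.0607). No member was a DEG, against 16.6% of genes, and 2 of 3 were past the adjusted p alone, against 47.2%. Olaparib concentration and length of exposure differ between these groups along with resistance, and cannot be told apart here.

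CDDP lowered metallothionein levels in OlaR SUM1315 cells. At the high dose MT2A was at 27290, 26880 and 25960, a log2 fold change of -0.56 (SE 0.08, adjusted p = 5.02e-06). MT1X was at 955.9, 814.5 and 785.6, the largest decrease of a member in either line, and had a log2 fold change of -0.91 (SE 0.09, adjusted p = 5.11e-09). MT1E was at 1121, 1112 and 1189 (log2 fold change -0.38, adjusted p = 0.0389), a call that was lost when any of the 6 libraries was left out (adjusted p 0.0594 to 0.119) or with no filter (0.0774). All 3 were below the OlaR libraries without overlap, and the share of all genes so separated was not counted. At the low dose the log2 fold changes were -0.35 for MT2A (adjusted p = 0.0159) and -0.4 for MT1X (adjusted p = 0.0128), and the difference was -0.28 for MT1E (adjusted p = 0.314). The low-dose call of MT2A was lost without OlaR replicate 1, 2 or 3 or CDDP replicate 1 or 2 (adjusted p 0.051 to 0.0716), with no filter (0.075) or with only the compared libraries (0.0799). That of MT1X was lost without OlaR replicate 1 (0.0729) or CDDP replicate 2 (0.086) or with only the compared libraries (0.0821). No member was a DEG, against 3.82% of genes at the high and 0.533% at the low dose. By the adjusted p alone 3 members passed at the high dose, against 16.7% of genes, and 2 at the low dose, against 1.42%.

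Whether the high CDDP dose acted differently in OlaR cells than in parental cells given olaparib was tested directly. The decrease of MT1X was larger in OlaR cells, with an interaction of -0.62 (SE 0.13, 95% interval -0.88 to -0.37, adjusted p = 0.00176). It was -0.17 for MT2A (95% interval -0.39 to 0.06, adjusted p = 0.415) and -0.13 for MT1E (95% interval -0.5 to 0.23, adjusted p = 0.73). Of the 3 members 1 passed, against 6.4% of genes.

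**Figure D2:**
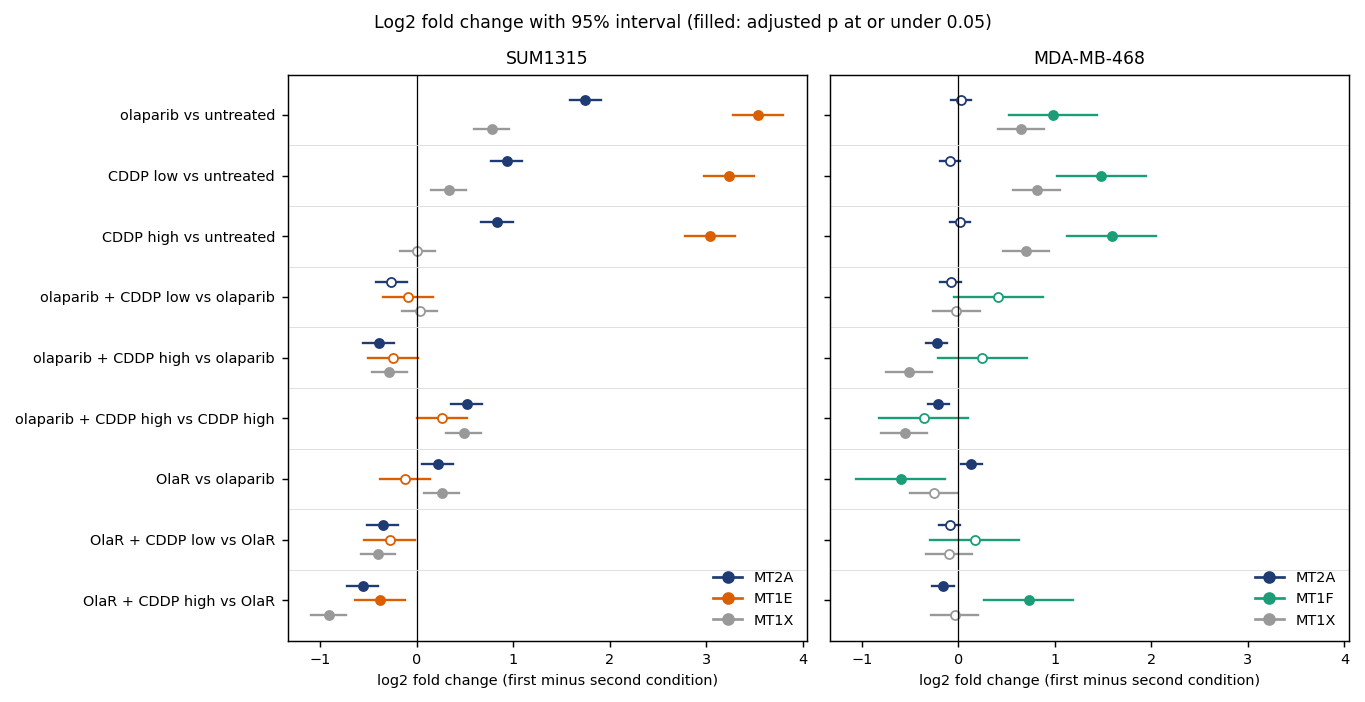
Log2 fold changes (horizontal axes, first minus second condition) of the metallothioneins tested in SUM1315 (left) and MDA-MB-468 (right) in 9 comparisons. Points are limma estimates and lines are 95% intervals, with filled points at an adjusted p at or under 0.05. MT1E and MT2A lie far to the right for the single drugs in SUM1315 (3.54 and 1.75 with olaparib), whereas MT2A in MDA-MB-468 is within 0.22 of 0 in all 9.

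In MDA-MB-468 cells, the MT1 members rose with each drug while MT2A did not pass the threshold. With olaparib MT2A was at 1969, 2177 and 2018, overlapping the untreated libraries, with a log2 difference of 0.03 (95% interval -0.08 to 0.13, adjusted p = 0.785). MT1F went from 21.21, 26.64 and 43.1 to 58.43, 54.61 and 62.22 (log2 fold change 0.98, SE 0.23, adjusted p = 0.001), and MT1X from 154.4 ± 18.5 to 223.1, 299.9 and 212.5 (0.65, SE 0.12, adjusted p = 3.53e-05). Neither MT1F nor MT1X overlapped the untreated libraries, again without a count over all genes. None of the 3 was a DEG, against 1.74% of 13012 genes tested, since MT1F was 1.98-fold higher. Without untreated replicate 3 or olaparib replicate 2, MT1F passed the fold limit and 1 member was a DEG. By the adjusted p alone 2 of 3 passed, against 21.5%.

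CDDP likewise raised MT1F and MT1X in MDA-MB-468. At the low dose MT1F was at 69.37, 87.49 and 93.92 (log2 fold change 1.48, SE 0.23, adjusted p = 1.83e-06), and at the high dose at 77.77, 101.1 and 90.71 (1.59, adjusted p = 3.32e-07), 2.8-fold and 3.01-fold higher than in untreated cells. MT1X was at 257.7, 278.7 and 274.6 at the low dose (log2 fold change 0.81, adjusted p = 7.09e-07) and at 231.8, 279.1 and 241.5 at the high dose (0.7, adjusted p = 9.61e-06). All of these libraries were above the untreated ones, likewise without a count over all genes. MT2A was at 1894, 1834 and 1977 and at 2032, 2018 and 2045, with log2 differences of -0.08 (95% interval -0.19 to 0.02, adjusted p = 0.299) and 0.01 (95% interval -0.09 to 0.12, adjusted p = 0.901). MT1F was the DEG at both doses, 1 of 3 members, against 1.83% of genes at the low and 2.59% at the high dose. By the adjusted p alone 2 of 3 passed at each, against 20% and 25.1%.

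Adding the high CDDP dose to olaparib in MDA-MB-468 brought MT1X and MT2A down. MT1X was at 165.5, 165.9 and 178.1, near the untreated level, a log2 fold change of -0.51 from olaparib (SE 0.12, adjusted p = 0.000929) and of -0.56 from CDDP alone (adjusted p = 0.000817). MT2A was at 1759, 1714 and 1805, the lowest condition of the line, and fell by 0.22 from olaparib (SE 0.05, adjusted p = 0.00117) and by 0.21 from CDDP alone (adjusted p = 0.00537). MT1F was at 65.49, 64.42 and 79.83, with a log2 difference of 0.25 from olaparib (95% interval -0.21 to 0.71, adjusted p = 0.486) and of -0.36 from CDDP (95% interval -0.82 to 0.1, adjusted p = 0.358). With the low dose and olaparib the log2 differences from olaparib were -0.08 for MT2A (adjusted p = 0.476), 0.42 for MT1F (adjusted p = 0.353) and -0.02 for MT1X (adjusted p = 0.958). There was no DEG among the members, against 1.91% of genes for the high dose over olaparib, 0.438% over CDDP and 0.177% for the low dose. By the adjusted p alone 2, 2 and 0 of 3 passed, against 23.1%, 11.9% and 5.26%.

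Against the sum of the single-drug changes, the combination with the high dose was lower for all 3 members in MDA-MB-468. For MT2A there was no single-drug rise past the threshold (0.03 with olaparib and 0.01 with high CDDP). Its combination mean of 1759 lay below the untreated mean of 2015. The interaction was -1.34 for MT1F (SE 0.32, adjusted p = 0.00169), -1.21 for MT1X (SE 0.17, adjusted p = 2.57e-07) and -0.24 for MT2A (SE 0.08, adjusted p = 0.0196). The call of MT2A was lost without untreated replicate 3 (adjusted p = 0.0605), olaparib replicate 2 (0.0779) or combination replicate 2 (0.0562). All 3 passed, against 20.2% of genes.

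In OlaR MDA-MB-468 cells MT1F was lower, and MT2A slightly higher, than in parental cells given olaparib. MT1F was at 48.34, 33.54 and 34.29 in OlaR cells, a log2 fold change of -0.6 (SE 0.23, adjusted p = 0.025). MT1X was at 206.6, 215.5 and 187.3 (log2 difference -0.26, 95% interval -0.5 to -0.01, adjusted p = 0.0699), and MT2A was at 2199, 2336 and 2219, a log2 fold change of 0.13 (SE 0.05, adjusted p = 0.0334). These calls were narrow. That of MT1F was lost without olaparib replicate 1 or 3 or OlaR replicate 2 or 3 (adjusted p 0.0522 to 0.0981), that of MT2A without olaparib replicate 1 or 3 or OlaR replicate 2 (0.0846 to 0.157) or with only the compared libraries (0.0776), and MT1X passed without olaparib replicate 1 (0.0489) or 3 (0.024). None of the 3 was a DEG, against 14.3% of genes, and 2 were past the adjusted p alone, against 51.5%.

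In OlaR MDA-MB-468 cells the high CDDP dose raised MT1F and lowered MT2A slightly. MT1F was at 56.26, 58.52 and 80 (log2 fold change 0.73, SE 0.23, adjusted p = 0.0179) and MT2A at 1925, 1975 and 2145 (-0.16, SE 0.05, adjusted p = 0.0264). MT1X was at 197.5, 195.5 and 199.4, a log2 difference of -0.04 (95% interval -0.28 to 0.2, adjusted p = 0.868). The call of MT1F was lost without OlaR replicate 2 or 3 or CDDP replicate 3 (adjusted p 0.0731 to 0.132), and that of MT2A without OlaR replicate 2 or CDDP replicate 1 or 2 (0.0925 to 0.144), with edgeR on whole reads (0.0561) or with only the compared libraries (0.0548). At the low dose the log2 differences were -0.09 for MT2A (adjusted p = 0.362), 0.17 for MT1F (adjusted p = 0.753) and -0.1 for MT1X (adjusted p = 0.717). No member was a DEG, against 2.39% of genes at the high and 0.392% at the low dose, and 2 and 0 were past the adjusted p alone, against 18.7% and 4.76%.

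The test of whether high-dose CDDP acted differently in OlaR than in olaparib-treated parental MDA-MB-468 cells gave 0.47 for MT1X (SE 0.17, adjusted p = 0.0495), 0.06 for MT2A (adjusted p = 0.657) and 0.48 for MT1F (95% interval -0.17 to 1.13, adjusted p = 0.359). The single call, 1 of 3 members against 15% of genes, sits at the threshold. It was lost in 9 of 12 fits that each left out a library, namely without olaparib replicate 2, any of the 3 combination libraries, OlaR replicate 1 or 3, or any of the 3 OlaR + CDDP libraries, with an adjusted p of 0.0568 to 0.231. The values of MT1X behind it were 245.1 ± 47.7 and 169.9 ± 7.18 in parental cells, without and with CDDP, and 203.1 ± 14.5 and 197.5 ± 1.94 in OlaR cells.

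Differences between the lines were tested for MT2A and MT1X, the members tested in both. The olaparib response of MT2A was larger in SUM1315 by 1.72 on the log2 scale (SE 0.08, 95% interval 1.56 to 1.87, adjusted p = 2.25e-24), and its response to the high CDDP dose by 0.82 (SE 0.08, adjusted p = 2.3e-12). For MT1X the difference was 0.13 with olaparib (95% interval -0.16 to 0.42, adjusted p = 0.573), and with high-dose CDDP it was -0.69, a smaller response in SUM1315 (SE 0.14, adjusted p = 0.000149). For OlaR against olaparib-treated parental cells the difference was 0.52 for MT1X (SE 0.14, adjusted p = 0.00254) and 0.09 for MT2A (95% interval -0.07 to 0.24, adjusted p = 0.367). Calls were 1 of 2 members for olaparib, 2 of 2 for CDDP and 1 of 2 for OlaR, against 23.6%, 31.8% and 44.9% of the 11755 genes tested in both lines. Doses and BRCA1 status differ between the lines together, so neither can be told apart from the line.

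Over the 9 comparisons of 2 conditions in each line, MT2A in SUM1315 rose in 5 and fell in 3, and in MDA-MB-468 it rose in 1 and fell in 3. MT1X rose in 4 and fell in 3 in SUM1315, and rose in 3 and fell in 2 in MDA-MB-468. MT1E rose in 3 and fell in 1, and MT1F rose in 4 and fell in 1. Across the 9 condition means of SUM1315 the Pearson correlation of log2 levels was 0.846 between MT2A and MT1E, 0.828 between MT2A and MT1X and 0.584 between MT1E and MT1X. In MDA-MB-468 it was 0.718 between MT1F and MT1X, 0.047 between MT2A and MT1X and -0.534 between MT2A and MT1F. These are descriptions over 9 points that share a line and a normalisation, and the low untreated point enters each in SUM1315.

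Zinc and copper genes were read beside the metallothioneins, from a list of 32 (MTF1, the zinc exporters SLC30A1 to SLC30A10, the zinc importers SLC39A1 to SLC39A14, and 7 copper genes), of which 26 were tested in SUM1315 and 28 in MDA-MB-468. The zinc exporter SLC30A1, like the metallothioneins a known MTF1 target, was in SUM1315 at 39.42, 18.68 and 7.41 in untreated cells, 36.42, 40.22 and 33.98 with olaparib, 43.37, 61.86 and 40.1 with low and 50.39, 52.01 and 63.97 with high CDDP. It rose by log2 fold changes of 1 (SE 0.36, adjusted p = 0.0281), 1.37 (adjusted p = 0.00344) and 1.58 (adjusted p = 0.000594). The untreated libraries were spread widely and overlapped those with olaparib. In MDA-MB-468 SLC30A1 rose with high-dose CDDP (0.94, SE 0.28, adjusted p = 0.0104), and its log2 differences with olaparib and low-dose CDDP were 0.74 (adjusted p = 0.0528) and 0.17 (adjusted p = 0.735).

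The zinc importer SLC39A10, which MTF1 is known to repress when zinc is high, fell with each single drug in both lines. Zinc and MTF1 activity were not measured, and their part in these changes was not tested. In SUM1315 it was at 974.7, 935.7 and 1126 in untreated cells, 381.3, 375.1 and 344.8 with olaparib and 301, 341.4 and 281.7 with high CDDP. Its log2 fold changes were -1.46 with olaparib (SE 0.11, adjusted p = 5.19e-12), -1.59 with low CDDP (adjusted p = 1.12e-12) and -1.71 with high CDDP (adjusted p = 6.34e-14). In MDA-MB-468 it was at 171.1, 212.1 and 177.1 in untreated cells, 87.15, 74.31 and 75.47 with olaparib and 77.68, 60.43 and 80.31 with high CDDP, and fell by 1.23 (SE 0.15, adjusted p = 7.47e-09), 1.02 (adjusted p = 6.94e-07) and 1.35 (adjusted p = 6.82e-10) with olaparib, low and high CDDP. The libraries with a single drug did not overlap the untreated ones in either line. In OlaR cells SLC39A10 was at 190.5, 168.3 and 155.8 in MDA-MB-468, a log2 fold change of 1.11 over olaparib-treated parental cells (adjusted p = 1.59e-08), and at 378.6, 388.3 and 381.8 in SUM1315, a log2 difference of 0.06 (95% interval -0.17 to 0.29, adjusted p = 0.681). This difference between the lines was itself past the threshold (-1.05, SE 0.18, adjusted p = 2.15e-06).

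**Figure D3:**
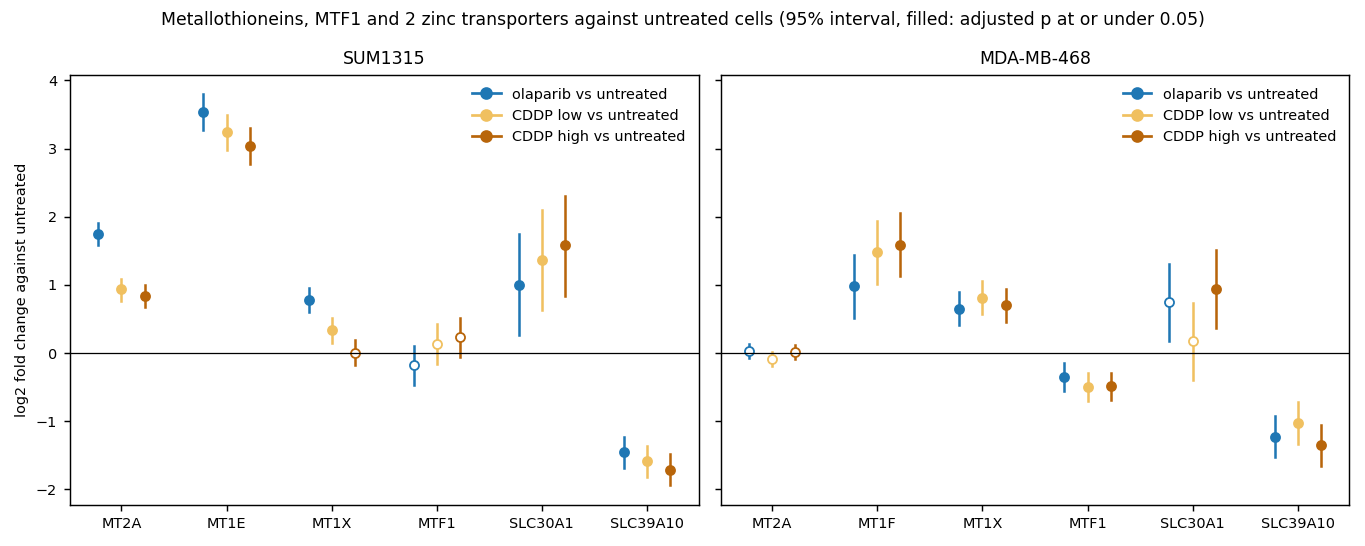
Log2 fold changes against untreated cells (vertical axis) of the tested metallothioneins, MTF1, the zinc exporter SLC30A1 and the zinc importer SLC39A10 in SUM1315 (left) and MDA-MB-468 (right). Points are limma estimates, lines 95% intervals, colours the treatment, and filled points have an adjusted p at or under 0.05. SLC39A10 lies below 0 for all 3 treatments in both lines (-1.02 to -1.71), while MT2A lies above 0 in SUM1315 and near 0 in MDA-MB-468.

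MTF1 itself rose in none of the 18 comparisons of 2 conditions. In SUM1315 its log2 differences from untreated cells were -0.18 with olaparib (adjusted p = 0.348), 0.13 with low CDDP (adjusted p = 0.513) and 0.23 with high CDDP (adjusted p = 0.193). In MDA-MB-468 it fell by 0.36 (SE 0.1, adjusted p = 0.00718), 0.5 (adjusted p = 0.000212) and 0.49 (adjusted p = 0.000182). OlaR SUM1315 cells had less MTF1 than olaparib-treated parental cells (-0.53, SE 0.14, adjusted p = 0.0027). These are levels of MTF1 RNA only, and their bearing on the metallothioneins was not tested.

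The rest of the zinc and copper list was counted by DEGs. In SUM1315 the list had 1 DEG higher and 1 lower with olaparib (SLC30A1 and SLC39A10), 1 and 2 with low CDDP, and 1 and 3 with high CDDP, of 26 tested, beside 9.35%, 8.79% and 15.4% of all genes. The additional lower genes with CDDP were the importer SLC39A11 (log2 fold change -2.22 at the low dose, adjusted p = 2.25e-06, and -4.74 at the high dose, adjusted p = 1.93e-13) and the copper exporter ATP7B (-1.98, adjusted p = 0.00652). In MDA-MB-468 the list had 0 higher and 2 lower with olaparib, 1 and 2 with low CDDP, and 2 and 1 with high CDDP, of 28 tested, beside 1.74%, 1.83% and 2.59% of all genes. Beyond SLC39A10 these were the importer SLC39A2 (-1.69 with olaparib, adjusted p = 0.00247, and -1.19 with low CDDP, adjusted p = 0.0411) and the exporters SLC30A2 (1.78 and 2.38 with low and high CDDP, adjusted p = 0.00152 and 2.12e-05) and SLC30A3 (1.05 with high CDDP, adjusted p = 2.95e-07). Its median log2 fold change lay between 0 and 0.13 in these 6 comparisons, and that of all genes between -0.01 and 0.01.

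Between OlaR and olaparib-treated parental cells, other genes of the list were DEGs. In SUM1315 SLC30A3 (log2 fold change 1.67, adjusted p = 2.57e-06), SLC39A3 (1.05, adjusted p = 1.47e-05) and SLC39A6 (1.18, adjusted p = 7.82e-14) were higher and SLC39A11 (-1.97, adjusted p = 8.21e-06) was lower. In MDA-MB-468 SLC30A2 (2.69, adjusted p = 4.84e-07), SLC39A2 (2.79, adjusted p = 2.14e-07) and SLC39A10 were higher, and SLC30A3 (-1.34, adjusted p = 1.11e-10), SLC39A11 (-1.88, adjusted p = 3.52e-20) and ATP7B (-1.75, adjusted p = 0.000306) were lower. SLC30A3 thus differed in opposite directions, and the difference between the lines was 3.01 (SE 0.31, adjusted p = 2.07e-11). These were 4 of 26 and 6 of 28 tested genes, beside the DEG shares of 16.6% and 14.3% over all genes, and the median log2 fold change of the list was -0.15 and -0.14, beside -0.05 and -0.03 for all genes.

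CDDP added to olaparib or given to OlaR cells gave 0 to 2 DEGs of the list in each comparison, 1 of 26 for the low and 1 of 26 for the high dose over olaparib in SUM1315, beside 0.495% and 1.32% of all genes. SLC39A11 fell with CDDP on top of olaparib in SUM1315 (-1.3 at the low dose, adjusted p = 0.0212, and -1.47 at the high dose, adjusted p = 0.00351). It also fell in MDA-MB-468 at the high dose over olaparib (-1.19, adjusted p = 2.73e-12), 1 of 28 beside 1.91% of all genes. In OlaR SUM1315 cells it fell at the high dose (-2.49, adjusted p = 1.43e-06), 1 of 26 beside 3.82% of all genes. Against high-dose CDDP alone, the combination in SUM1315 had more SLC39A11 (2.6, adjusted p = 1.15e-06) and ATP7B (2.53, adjusted p = 0.00342), 2 of 26 beside 2.56% of all genes. In OlaR MDA-MB-468 cells the high dose raised SLC30A3 (1.2, adjusted p = 2.09e-08) and the copper transporter family member SLC31A2 (1.13, adjusted p = 0.000193), 2 of 28 beside 2.39% of all genes. The uptake transporter SLC31A1 and the exporter ATP7A were DEGs in none of the 18 comparisons. By the adjusted p alone, 3 of the 7 copper genes rose with olaparib in SUM1315 and 2 with low CDDP. With high CDDP 1 rose and 1 fell, beside 36%, 33.9% and 43.9% of all genes. In MDA-MB-468 1 rose with each single drug, beside 21.5%, 20% and 25.1%. From olaparib-treated parental to OlaR cells 1 rose and 3 fell in SUM1315, and 0 and 3 in MDA-MB-468, beside 47.2% and 51.5%.

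The glucocorticoid response and the oxidative stress gene HMOX1 were read because both inputs are known to reach metallothionein genes. Their part in the metallothionein changes was not tested. Of the glucocorticoid list of 5 genes (FKBP5, TSC22D3, PER1, KLF9 and ZBTB16), 4 were tested in each line. With the single drugs none was a DEG, apart from TSC22D3, which fell with high-dose CDDP in SUM1315 (-1.06, adjusted p = 5.2e-06), beside 15.4% of all genes. By the adjusted p alone, 1 rose and 1 fell with olaparib in SUM1315. With low CDDP 2 rose and 1 fell, and with high CDDP 1 rose and 2 fell, beside 36%, 33.9% and 43.9% of all genes. Their median log2 fold changes were 0.08, 0.36 and -0.19. In MDA-MB-468 0 rose and 1 fell with each, beside 21.5%, 20% and 25.1% of all genes. In OlaR cells 2 were lower than in olaparib-treated parental cells in each line, TSC22D3 (-1.46, adjusted p = 1.39e-08) and PER1 (-2.06, adjusted p = 2.7e-11) in SUM1315, and FKBP5 (-1.11, adjusted p = 1.09e-10) and PER1 (-1.51, adjusted p = 1.53e-06) in MDA-MB-468, beside DEG shares of 16.6% and 14.3% over all genes. HMOX1, which encodes heme oxygenase, fell with low and high CDDP in SUM1315 (-1.2, adjusted p = 9.2e-08, and -1.13, adjusted p = 1.28e-07), and its log2 difference with olaparib was 0.21 (adjusted p = 0.265). In MDA-MB-468 it fell with olaparib (-0.73, adjusted p = 1.42e-07), low CDDP (-0.82, adjusted p = 1.05e-08) and high CDDP (-0.61, adjusted p = 4.49e-06). CDDP added to olaparib lowered it at the high dose in SUM1315 (-0.66, adjusted p = 0.0034) and raised it at the low dose in MDA-MB-468 (0.57, adjusted p = 1e-04), and the high-dose combination in SUM1315 had more than CDDP alone (0.69, adjusted p = 0.00144). OlaR cells had less HMOX1 than olaparib-treated parental cells in SUM1315 (-0.5, adjusted p = 0.00553) and more in MDA-MB-468 (1.21, adjusted p = 8.99e-15).

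The genes whose condition means were most like those of a member were named by Pearson's correlation over 18 conditions, each line centred on its own mean, among the 11755 genes tested in both lines. For MT2A these were PDK3, a pyruvate dehydrogenase kinase (r = 0.973), RTN2, a reticulon (r = 0.94), and SCPEP1, a serine carboxypeptidase (r = 0.918). Within the lines the r of PDK3 was 0.989 over 9 SUM1315 and 0.722 over 9 MDA-MB-468 conditions. It was 0.952 and 0.722 for RTN2, and 0.937 and only 0.377 for SCPEP1. RTN2 had just 22, 10 and 4 reads in the untreated SUM1315 libraries. PDK3 was at 16.6, 30.01 and 43.26 in untreated SUM1315 cells, 81.32, 65.93 and 89.94 with olaparib and 75.01, 109.1 and 82.4 in OlaR cells, low counts beside those of MT2A. For MT1X they were TMEM256 (r = 0.825), the receptor phosphatase PTPRS (r = 0.817) and MANF, a secreted protein of the endoplasmic reticulum stress response (r = 0.798). In SUM1315 and MDA-MB-468 the r was 0.839 and 0.811 for TMEM256, 0.919 and 0.603 for PTPRS, and 0.895 and 0.577 for MANF. TMEM256 was at 307.4, 335.1 and 242.2 in untreated SUM1315 cells, 626.1, 532 and 607.8 in OlaR and 370.7, 338.4 and 429.2 in OlaR cells with high CDDP. The genes were picked as the highest of 11755 values, so their r has no test.

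**Figure D4:**
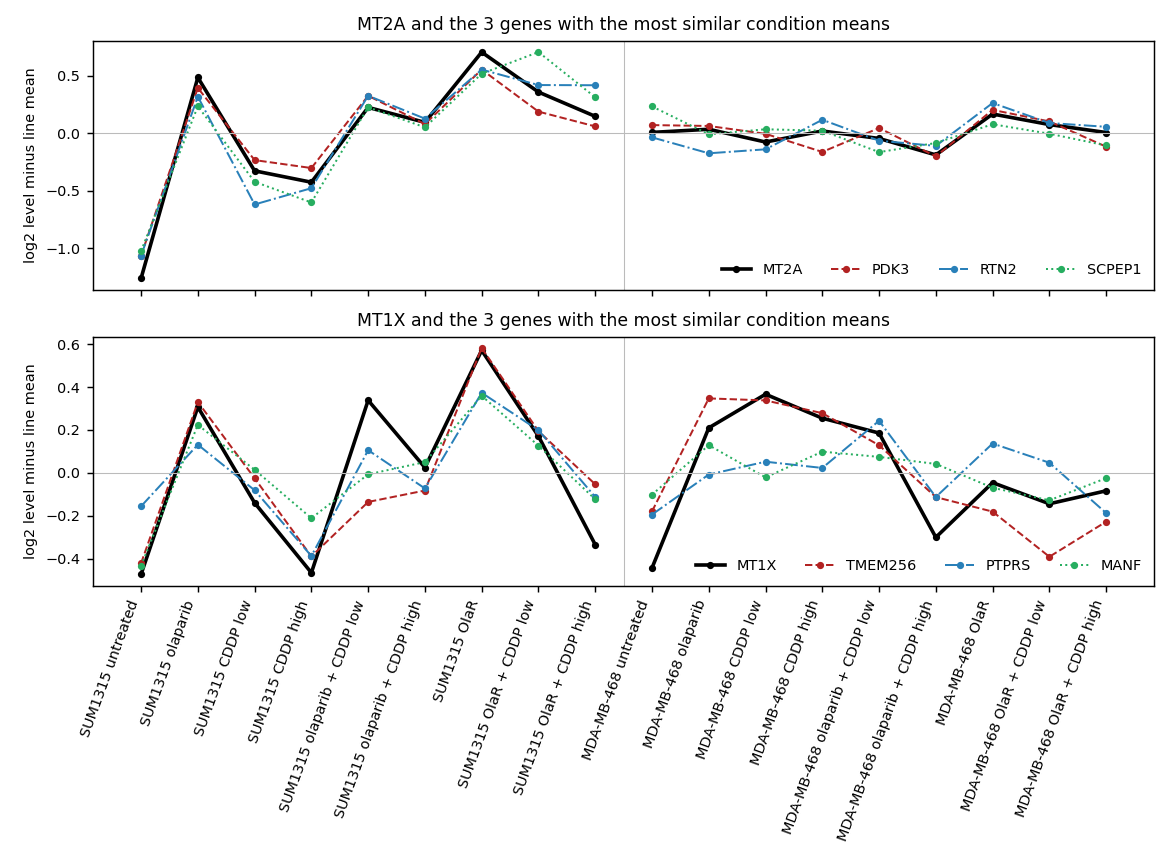
Log2 level minus the mean of the line (vertical axes) over the 9 conditions of SUM1315 (left of the grey line) and of MDA-MB-468 (right), for MT2A (top) and MT1X (bottom), each with the 3 genes of the highest Pearson's r over 18 conditions. Points are means of 3 libraries. MT2A and PDK3 (r = 0.973) share the low untreated point and the high olaparib and OlaR points of SUM1315, with a small range in MDA-MB-468.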

How the data were processed

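RNA of 54 libraries (2 lines, 18 conditions of 3 libraries) was sequenced by the authors as QuantSeq 3′ reads of 50 bases, aligned to hg38. The submitters' processing notes list CASAVA 1.8.2, FastQC, STAR, HTSeq and edgeR. How reads matching several copies were counted is not given in the sources used here. The deposited table holds a signal that the authors had adjusted with edgeR within each condition, to a library size of 5585170 at a common dispersion of 0.01039. Inverting the adjustment gave whole reads, and 1483376 of 1483380 values were given back within a relative tolerance of 1e-06. The tables of the authors' own log2 fold changes, p-values and FDR against untreated cells were not used.

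The main test was limma 3.58.1 in R 4.3.3, on log2-transformed adjusted read counts (pseudocount 1), with the variance following the mean level. The 27 libraries of a line entered its fit together, as 9 conditions. A gene was tested if 3 or more of them reached a value of 10. Line differences were fitted with all 54 libraries over the genes tested in both lines. P-values were adjusted by Benjamini-Hochberg over all genes of a fit. Other settings were edgeR 4.0.16 and DESeq2 1.42.0 on whole reads, a pseudocount of 4, no filter, a replicate block, only the compared libraries, and leaving out each library. A gene "rose" or "fell" at an adjusted p at or under 0.05. Fold changes on this scale are slightly understated for low counts. The fits were tested on simulated counts with known changes.

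The members and gene lists were chosen with earlier results of these data known. Named were the 6 members, MTF1, SLC30A1, SLC39A10, other listed genes that were DEGs in a comparison of 2 conditions, and the 3 most similar genes of each member tested in both lines. Libraries of a condition were not copies of each other, as chi-square divided by its degrees of freedom was 1.72 to 12.3. Which libraries shared a sequencing batch of 27 is not given, so batches could not be tested.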

Additional observations from a re-analysis of the deposited data

Results flagged for a closer look

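Each of the following is a tested difference between the effects of a contrast in 2 settings, on the log2 scale, past an adjusted p of 0.05 in limma. In SUM1315, the combination of olaparib and high-dose CDDP fell short of the sum of the single-drug changes for MT2A (-1.23) and MT1E (-3.28). In MDA-MB-468 it did so for MT1F (-1.34) and MT1X (-1.21). MT2A, which rose with neither single drug there, was also below the sum (-0.24). That call of MT2A was lost without untreated replicate 3, olaparib replicate 2 or combination replicate 2. The effect of high-dose CDDP on MT1X differed between OlaR and olaparib-treated parental cells by -0.62 in SUM1315 and by 0.47 in MDA-MB-468. The MDA-MB-468 value sat at the threshold (adjusted p = 0.0495), and its call was lost in 9 of 12 fits that each left out a library. The signs are opposite, but the difference between those values was not tested. MT2A responded more in SUM1315 than in MDA-MB-468 to olaparib (1.72) and to high-dose CDDP (0.82). MT1X responded less to high-dose CDDP in SUM1315 (-0.69), and its difference between OlaR and olaparib-treated parental cells was 0.26 in SUM1315 and -0.26 in MDA-MB-468 (difference 0.52).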

How the results depend on the processing

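Of the 25 counts of members past the threshold, the count for high-dose CDDP in OlaR against parental MDA-MB-468 cells moved from 1 to 0 with no filter, with edgeR on whole reads, with the replicate block and with only the compared libraries, and lay between 0 and 1 when a library was left out. The call is that of MT1X, whose value was 0.47 to 0.49 in those 4 fits. The count for olaparib in MDA-MB-468 lay between 0 and 1 when a library was left out. With no filter, the counts for the line differences in olaparib and in OlaR moved from 1 to 2, because members without reads in 1 of the lines then entered the fit. The pseudocount of 4 and DESeq2 moved no count. Same-numbered libraries of different conditions correlated by only -0.125 to 0.188, so the numbers do not pair the libraries, and the replicate block changed no other call.

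Directions turned only for differences near 0 that were past no threshold. MT1X with high-dose CDDP in SUM1315 was at -0.01 with DESeq2 and between -0.01 and 0.03 when a library was left out. In MDA-MB-468, leaving out a library put MT2A between -0.01 and 0.02 with high-dose CDDP and between -0.01 and 0.06 with olaparib, and MT1X between -0.12 and 0.13 with low-dose CDDP added to olaparib. MT1X with high-dose CDDP in OlaR MDA-MB-468 cells lay between -0.1 and 0.01. Over all values of single members, 893 kept their direction and side of the threshold, 64 lost a call and 6 gained one. Depth limits MT1F most, with 23 to 139 reads per library.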
